A study of Homo sapiens with 6 samples.

Results

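DPP4, FAP, DPP7, DPP8, DPP9 and PREP are 6 serine peptidase genes whose products cut after proline, taken here as the rows with these symbols among 60663 genes in a table of RNA counts. They were chosen by their behaviour in these same libraries, after an earlier look at the siLTBP2 against siNT contrast, so their levels and fold changes in that contrast are given as a description, without a test. All 6 passed the filter on low counts that left 16920 genes for testing. The libraries came from CCD18Co, an established line of normal human colon fibroblasts, transfected for 6 h either with a pool of short interfering RNAs that has no intended target (siNT) or with a pool against LTBP2 (siLTBP2), the transcript of an extracellular matrix protein of the latent TGFβ binding family. RNA was taken 48 h after transfection, and each group held 3 libraries. Both groups received transfection reagent and an RNA pool. The model is limited to 1 cell line and 1 pool against LTBP2. Nothing in the labels says that the 3 libraries of a group came from separate cultures, so errors and p-values measure the spread between libraries.

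Dipeptidyl peptidase 4 (DPP4, also called CD26) is a cell surface enzyme that removes dipeptides from the N-terminus of peptides with proline or alanine in the second position, among them incretin hormones and chemokines, and it marks a subset of fibroblasts in several tissues. Fibroblast activation protein (FAP) is its closest relative, encoded near it on chromosome 2. FAP also cuts inside proteins, with denatured type I collagen among its substrates, and is known as a marker of activated and tumour-associated fibroblasts. DPP8 and DPP9 are cytosolic members of the same family and restrain the NLRP1 and CARD8 inflammasomes, DPP7 works inside vesicles and lysosomes, and prolyl endopeptidase (PREP) cuts short peptides in the cytosol.

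All 6 genes lie on the minus strand of GRCh38. DPP4 (ENSG00000197635) spans chr2:161992245-162074394 and has 26 exons in its canonical transcript, and FAP (ENSG00000078098) spans chr2:162170684-162245151, also with 26 exons. DPP7 (ENSG00000176978) lies at chr9:137110542-137118309 with 13 exons, DPP8 (ENSG00000074603) at chr15:65442463-65517704 with 20, DPP9 (ENSG00000142002) at chr19:4674341-4724673 with 22, and PREP (ENSG00000085377) at chr6:105273218-105454062 with 15.

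The upstream sequences of DPP4 and DPP7 are shown because these were the 2 members that were lower in siLTBP2. Each is the stretch of 250 bases before the RefSeq start site on GRCh38.p14, read on the minus strand, at chr2:162074216-162074465 for DPP4 and chr9:137114734-137114983 for DPP7. The RefSeq start sites lie inside the gene spans given above, so the DPP7 stretch falls wholly within its span and the DPP4 stretch partly. Capitals mark the palindromic letters CACGTG, the core of an E-box.

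DPP4: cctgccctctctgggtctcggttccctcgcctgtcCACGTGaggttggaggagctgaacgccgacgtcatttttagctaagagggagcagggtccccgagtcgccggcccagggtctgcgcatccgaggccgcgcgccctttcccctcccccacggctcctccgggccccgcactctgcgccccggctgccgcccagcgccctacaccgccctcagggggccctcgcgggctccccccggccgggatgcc

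DPP7: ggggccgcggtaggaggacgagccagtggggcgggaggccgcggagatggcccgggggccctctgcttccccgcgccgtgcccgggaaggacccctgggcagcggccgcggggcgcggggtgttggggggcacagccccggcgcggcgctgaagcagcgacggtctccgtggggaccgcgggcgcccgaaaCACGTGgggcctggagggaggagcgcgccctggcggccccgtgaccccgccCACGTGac

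The DPP4 stretch held CACGTG 1 time and the DPP7 stretch 2 times, while 2 windows of DPP8 and 5 of DPP9 held none. RefSeq windows were matched for 4 of the 6 genes, and FAP and PREP are named only. Over 35116 upstream windows of this length, 6.34% held CACGTG. Both stretches were rich in G and C, with 73.6% for DPP4 and 80.0% for DPP7 against a median of 58.0% over all windows, and held 26 and 34 CpG dinucleotides against a median of 11. This was not particular to them, since the second window of DPP8 had 72.8% G and C, 27 CpG dinucleotides and 3 matches to GGGCGG. The DPP4 and DPP7 stretches each had 2 matches on either strand to the letters GGGCGG, the GC box, which 42.6% of windows hold, and no match to CCAAT or TATAAA, which 32.0% and 10.7% of windows hold. These matches describe letters, not binding.

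LTBP2 itself checked the labels, with 30.4% of its siNT level left in siLTBP2 (log2 fold change -1.72, SE 0.15, edgeR quasi-likelihood test, adjusted p = 6.6e-05). Library totals ran from 44663424 to 53576899 counts. Levels are given as CPM, counts relative to library size after TMM scaling, the trimmed-mean method of edgeR. The RNA was that of fibroblasts. Summed over 9 fibroblast markers, VIM and COL1A1 among them, the level was 9933 to 13204 CPM in siNT and 10067 to 14406 in siLTBP2, and 0 of the 9 were called. Their median log2 fold change was -0.22, 6 of the 9 lay below 0, and PDGFRB, a growth factor receptor, was lower at less than 2-fold (-0.60, edgeR adjusted p = 0.0025). Epithelial markers summed to at most 0.115 CPM and leukocyte markers to at most 0.359 CPM in any library, with KRT20 at 0 throughout. Endothelial markers summed to 1.48 to 2.03 CPM in siNT and 0.80 to 1.37 CPM in siLTBP2. Their part in the results was not tested.

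A gene was called when its adjusted p was below 0.01 and its fold change above 2, a rule that 2.57% of the tested genes met, 1.27% lower and 1.29% higher in siLTBP2. Among the 6 peptidase genes 1, DPP4, was called, in the lower direction. At an adjusted p below 0.01 with any fold change, 9.16% of genes passed (4.38% lower and 4.78% higher), and so did DPP4 and DPP7. The CPM of both groups did not overlap for 37% of tested genes, nor for DPP4 and DPP7. Since the contrast chose the members, nothing is read from these counts.

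DPP4 was the member that differed most between the groups. Its counts were 7346, 8322 and 6998 in siNT and 2606, 2997 and 2479 in siLTBP2. As CPM these were 159, 169 and 130 in siNT against 59.8, 63.4 and 47.0 in siLTBP2. Every siLTBP2 library lay far below every siNT library, and the lowest siNT value was still above the highest siLTBP2 value by more than the spread within either group. The means were 152 ± 20.2 and 56.7 ± 8.58 CPM (SD, n = 3), so that 37.2% of the siNT level was left, a log2 fold change of -1.43 (SE 0.13). In the order of all 16920 tested genes from the lowest log2 fold change, DPP4 stood at place 125. Between same-numbered libraries the log2 difference was -1.41, -1.41 and -1.46, although the labels do not say that the numbers pair the cultures. In bulk RNA, fewer cells with DPP4 transcript and less transcript per cell cannot be told apart.

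**Figure D1:**
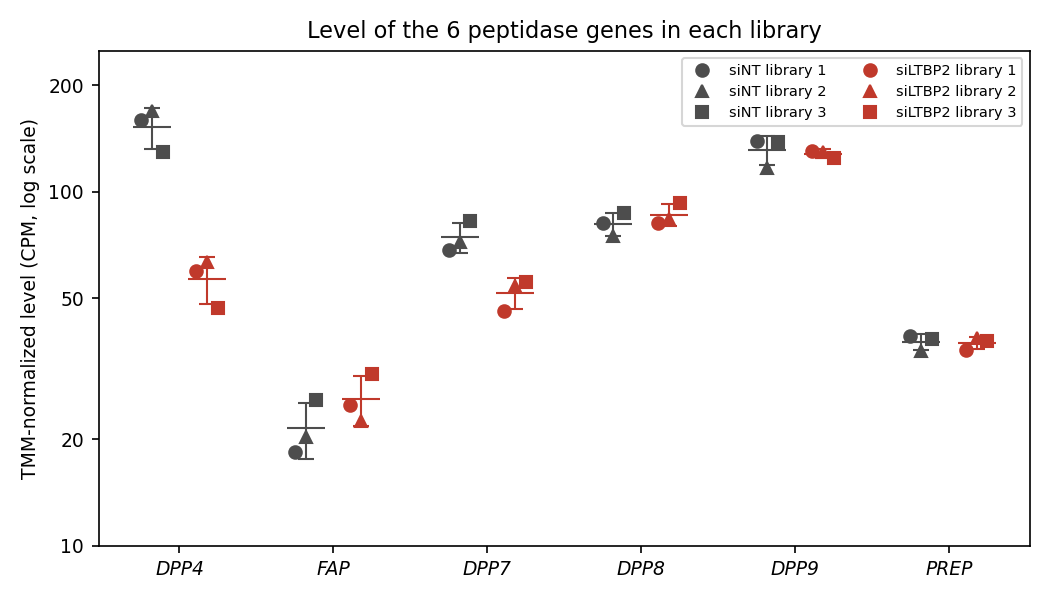
TMM-normalized CPM (vertical axis, log scale) of the 6 peptidase genes (horizontal axis) in the 3 siNT libraries (grey) and 3 siLTBP2 libraries (red), with a circle, triangle and square for libraries 1, 2 and 3 and bars for the mean ± SD of 3 libraries. Mean DPP4 was 152 CPM in siNT and 56.7 CPM in siLTBP2 and mean DPP7 74.3 and 51.9 CPM, both with no overlap, whereas the groups overlapped for FAP, DPP8, DPP9 and PREP.

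FAP did not share the pattern of DPP4. FAP counts were 849, 999 and 1391 in siNT and 1088, 1061 and 1610 in siLTBP2, or 18.4, 20.2 and 25.8 CPM against 25.0, 22.4 and 30.6 CPM. The third siNT library lay above the first and second siLTBP2 libraries, so the groups overlapped. With means of 21.5 ± 3.87 and 25.98 ± 4.15 CPM (SD, n = 3), the log2 fold change was 0.28 (SE 0.15), in the opposite direction to DPP4 and within the range of the libraries.

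DPP7 was lower in siLTBP2 by less than 2-fold. The counts of this vesicular dipeptidyl peptidase were 3165, 3561 and 4443 in siNT and 2000, 2562 and 2930 in siLTBP2. The CPM values, 68.4, 72.1 and 82.4 against 45.9, 54.2 and 55.6, did not overlap. Means were 74.3 ± 7.23 and 51.9 ± 5.24 CPM (SD, n = 3), leaving 69.8% of the siNT level (log2 fold change -0.52, SE 0.10).

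The cytosolic enzymes differed between the groups by less than the spread of their libraries. DPP8 was at 81.7, 74.9 and 86.9 CPM in siNT and 81.8, 83.5 and 92.9 CPM in siLTBP2 (log2 fold change 0.08, SE 0.09). DPP9 was at 139, 117 and 138 CPM against 131, 130 and 124 CPM (log2 fold change -0.04, SE 0.09). PREP was at 39.1, 35.5 and 38.4 CPM against 35.7, 38.5 and 37.9 CPM (log2 fold change -0.01, SE 0.09). For all 3 the groups overlapped, and the sign for DPP9 and PREP turned when single libraries were left out.

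**Figure D2:**
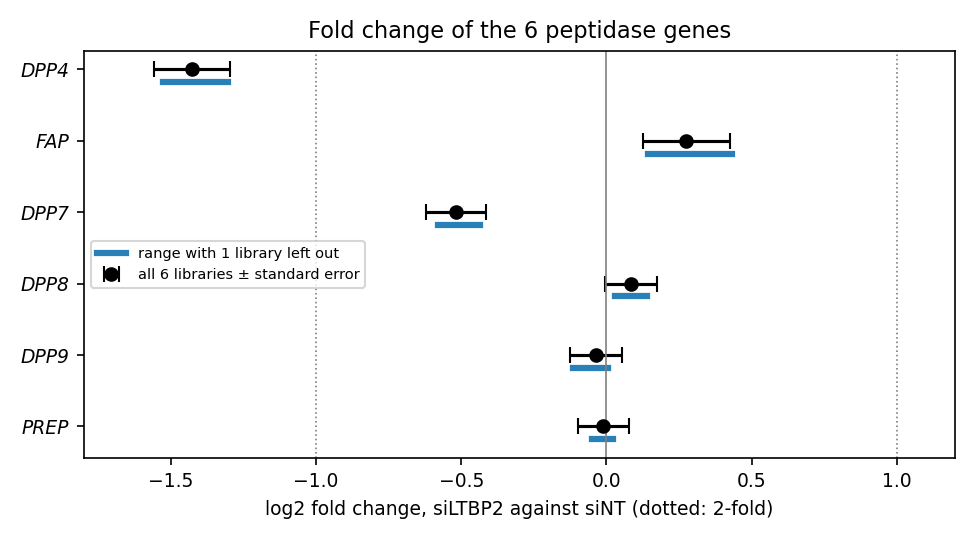
Log2 fold change of siLTBP2 against siNT (horizontal axis, dotted lines at 2-fold) for the 6 peptidase genes, as black points with the standard error and, beneath each, a blue bar for the range of values with 1 library left out. DPP4, at -1.43, is the member beyond 2-fold, and its range with 1 library left out runs from -1.53 to -1.30.

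Per kilobase of canonical transcript, DPP7 and DPP4 were the most abundant of the 6 in siNT, at 46.4 ± 4.52 and 42.7 ± 5.65 CPM per kb (SD, n = 3), and their libraries overlapped. DPP9 followed at 30.7 ± 2.95 CPM per kb, then DPP8 at 11.1 ± 0.822, FAP at 7.96 ± 1.43 and PREP at 5.19 ± 0.263, each below its neighbour in every library. DPP4 stood at the 90.3rd percentile of 16874 tested genes with a length, whose median was 5.26 CPM per kb. In siLTBP2 the order changed. DPP7 at 32.4 ± 3.28 and DPP9 at 30.0 ± 0.822 CPM per kb overlapped, and DPP4 came next at 15.9 ± 2.40, above DPP8 at 11.8 ± 0.826 in every library. FAP at 9.64 ± 1.54 CPM per kb overlapped DPP8, and PREP was lowest at 5.16 ± 0.201. The order depends on the length used, since over the union of all annotated exons DPP9 stood at 11.8 CPM per kb in siNT, above DPP4 at 10.6. By that length FAP, not PREP, was lowest, at 3.08 against 4.22 in siNT and 3.73 against 4.19 in siLTBP2. DPP4 at 3.93 was then below DPP8 at 8.43 in siLTBP2.

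The balance between DPP4 and FAP shifted with these levels. The ratio of DPP4 to FAP in CPM was 8.65, 8.33 and 5.03 in siNT against 2.40, 2.82 and 1.54 in siLTBP2, without overlap. On the log2 scale the mean ratio was 2.83 ± 0.44 against 1.13 ± 0.45 (SD, n = 3), a difference of -1.71. Summed over the 6 genes siNT libraries reached 498 ± 8.99 CPM and siLTBP2 libraries 386 ± 6.62 CPM (SD, n = 3). DPP4 made up 31.4, 34.5 and 25.9% of that sum in siNT and 15.8, 16.2 and 12.1% in siLTBP2. DPP9 and DPP8 kept a ratio of 1.62 ± 0.0734 against 1.49 ± 0.140.

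The libraries numbered 3 stood apart in both groups. DPP4 was lowest and FAP highest in the third library of each. Against the mean of the other two libraries of its group, DPP4 differed there by -0.33 in siNT and -0.39 in siLTBP2 on the log2 scale, and FAP by 0.42 and 0.37. With both of these libraries left out, the log2 fold change was -1.43 for DPP4 and 0.28 for FAP. Leaving out 1 library moved FAP more, to 0.14 without siLTBP2 replicate 3, 0.17 without siNT replicate 1 and 0.43 without siNT replicate 3. In these libraries DPP4 and FAP thus deviated in opposite directions. DPP7 and DPP8 were, like FAP, highest in the third library of each group. By the same measure DPP7 differed by 0.23 in siNT and 0.15 in siLTBP2, and DPP8 by 0.15 and 0.17. DPP9 differed by 0.11 and -0.07 and PREP by 0.04 and 0.03. A batch behind the number is not named in the labels, and its part was not tested.

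**Figure D3:**
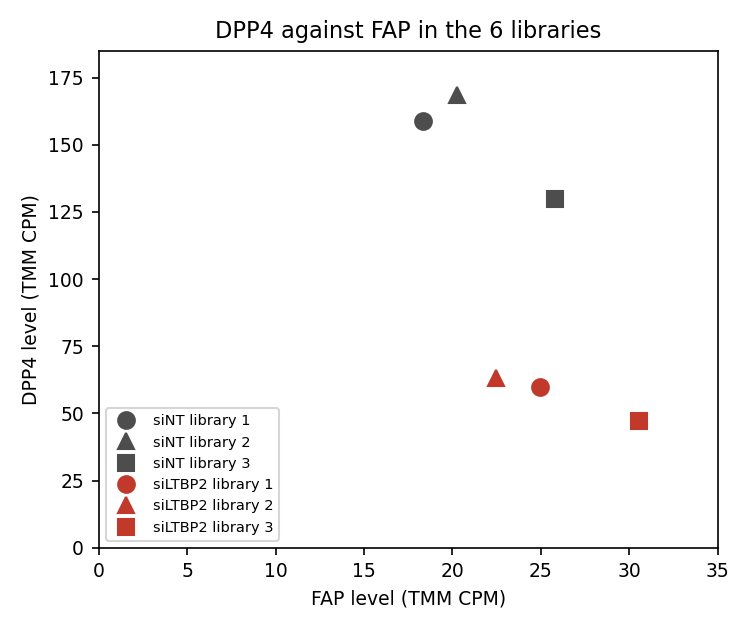
DPP4 level (vertical axis, TMM CPM) against FAP level (horizontal axis, TMM CPM) in the 6 libraries, siNT in grey and siLTBP2 in red, with a circle, triangle and square for libraries 1, 2 and 3. The siNT libraries lie between 130 and 169 CPM of DPP4 and the siLTBP2 libraries between 47.0 and 63.4 CPM, and the square of each group is lowest for DPP4 and highest for FAP.

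Over the 6 libraries, Pearson's r between the log2 CPM of DPP4 and FAP was -0.74, and between DPP4 and DPP7 it was 0.82. These correlations describe the same 6 libraries that differ in siRNA, and they carry no test. The genes most like DPP4 were USP46-DT (r = 0.997), TBXAS1 (0.996), HSD17B12 (0.996), FBXW4 (0.996) and AP3S2 (0.995), out of 523 genes above 0.95. TBXAS1, which encodes thromboxane synthase, fell from 69.5 to 32.3 CPM and AP3S2, an adaptor subunit, from 17.7 to 8.11 CPM, and both were called lower. A lower level in siLTBP2 was built into the choice of genes that track DPP4, so nothing is read from these calls. Among the genes most like FAP were RUFY2 (0.998), MTREX (0.992), TEDC1 (0.989) and UBXN8 (0.988), none of which was called.

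The genes around DPP4 were examined because DPP4 and FAP lie near each other. The divergent noncoding transcript DPP4-DT starts beside the DPP4 start and runs the other way. Its counts were 180, 215 and 221 in siNT and 37, 35 and 42 in siLTBP2, a log2 fold change of -2.37 (SE 0.18), and it was called lower like DPP4. DPP4-DT and DPP4 share 174 exonic bases on opposite strands, 1.21% of the DPP4 exon bases. DPP4-DT held 2.37% as many counts as DPP4. Noncoding genes on the opposite strand covered more of FAP (9.16% of exon bases) and of DPP9 (14.3%). Of the 50-base stretches in each canonical transcript, 15.1% in FAP and 7.20% in DPP9 also occur in transcripts of other genes, against 0.85% in DPP4. The effect on the levels was not tested. Taking all DPP4-DT counts away from DPP4 in each library left a log2 fold change of -1.41 for DPP4. So few counts could move the value only slightly whatever their origin, so nothing is read from this removal. FAP starts 170.8 kb from the DPP4 start. Of the 6 tested locus neighbours, which include DPP4-DT, 0 were called higher and 1, DPP4-DT, lower. Over all tested genes 1.29% were called higher and 1.27% lower. The median log2 fold change of the neighbours was 0.12 against -0.01 over all tested genes. TANK, PSMD14, IFIH1 and FIGN had log2 fold changes of 0.15, 0.17, 0.09 and 0.01. GCA rested on 8, 5 and 9 counts in siNT and 13, 18 and 26 in siLTBP2 and was not called. Proglucagon (GCG), a classical source of DPP4 substrates that lies between DPP4 and FAP, had at most 2 counts in any library.

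**Figure D4:**
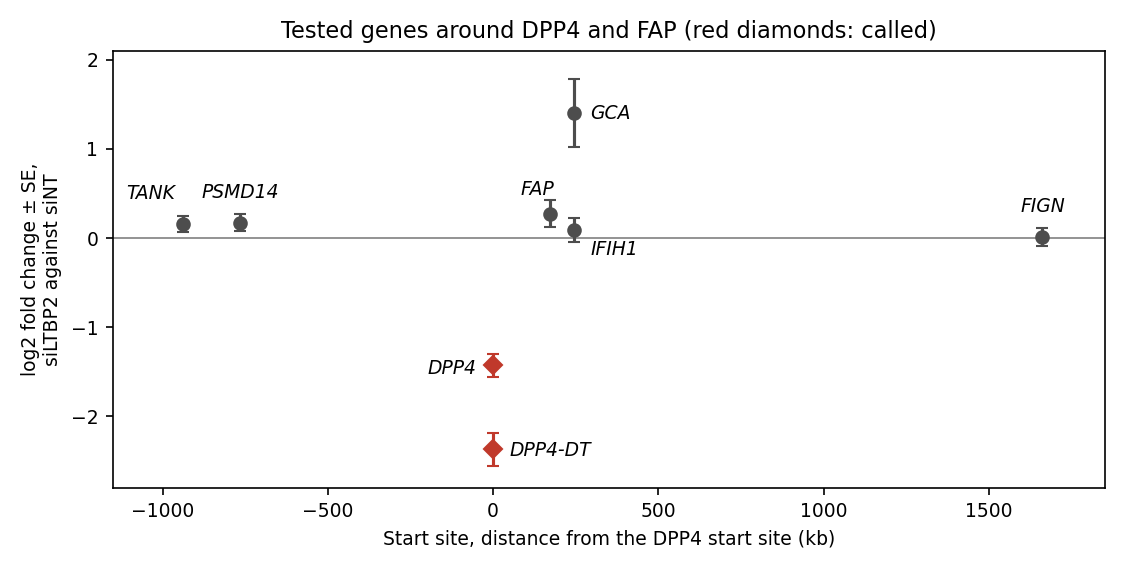
Log2 fold change ± SE of siLTBP2 against siNT (vertical axis) for the tested genes around DPP4 and FAP, by the distance of their start site from that of DPP4 in kb (horizontal axis), with called genes as red diamonds. DPP4 at -1.43 and DPP4-DT at -2.37 stand below 0 side by side, while FAP, 170.8 kb away, is at 0.28.

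The 7-base word GCACCCA was searched on the sense strand of the canonical transcripts because an earlier search of these data had found its carriers lower in siLTBP2. Here 1455 tested transcripts with the word in the 3′ untranslated region (UTR) stood at -0.15 in the median on the log2 scale, and transcripts without it there at 0.02. Of 12314 such transcripts, 11.8% held it in the 3′ UTR and 13.8% in the coding sequence. DPP4, FAP, DPP8 and PREP held it in neither. DPP7 had 1 match, in its coding sequence, and DPP9 had 1, in its 3′ UTR, each shown with the word in capitals and the bases around it.

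DPP7 coding sequence: gagtcccaaatGCACCCAgggtgtgcggga

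DPP9 3′ UTR: caccgtccccaGCACCCAagcatgcaattg

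DPP7, with the word in its coding sequence, had a log2 fold change of -0.52, and DPP9, with it in its 3′ UTR, one of -0.04. The 1482 transcripts with the word in the coding sequence and not in the 3′ UTR stood at -0.09 in the median. DPP4, without the word, had a log2 fold change of -1.43. The part of the word in these differences was not tested. A missing match says only that these letters are not in these transcripts.

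Of 10 tested related peptidases, 0 were called higher and 1 was called lower, beside 1.29% higher and 1.27% lower over all tested genes. Their median log2 fold change was -0.05. At an adjusted p below 0.01 with any fold change, 3 of the 10 were lower and 0 higher, beside 4.38% lower and 4.78% higher over all tested genes. The 1 was prolidase (PEPD), which splits dipeptides that end in proline. PEPD was at 49.5, 51.2 and 63.1 CPM in siNT and 11.8, 16.2 and 15.1 CPM in siLTBP2. Every siLTBP2 library lay far below every siNT library. PEPD fell by 1.92 on the log2 scale (SE 0.14, edgeR quasi-likelihood test, adjusted p = 3.0e-05). Dipeptidyl peptidase 3 (DPP3), a cytosolic metallopeptidase, and the acylaminoacyl peptidase APEH passed the adjusted p at less than 2-fold, with log2 fold changes of -0.73 (adjusted p = 0.0014) and -0.65 (adjusted p = 0.00058). The lysosomal proline peptidase PRCP and the PREP relative PREPL had log2 fold changes of -0.03 and -0.22 and did not pass. DPP6 and DPP10, family members without enzyme activity, had 0 counts in all 6 libraries.

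Among 9 tested genes listed as cell surface peptidases, 0 were called in either direction, and the median log2 fold change was 0.48. The list also holds ERAP1 and ERAP2, which are aminopeptidases of the endoplasmic reticulum. ADAM17, the sheddase of membrane proteins, rose at less than 2-fold from 76.1 ± 4.14 to 125 ± 7.72 CPM (SD, n = 3, log2 fold change 0.71, edgeR adjusted p = 0.00034). Neprilysin (MME) and ERAP2 likewise passed the adjusted p with log2 fold changes of 0.49 and 0.48. ANPEP, an aminopeptidase of the same kind of surface as DPP4, had a log2 fold change of 0.79 and did not pass (adjusted p = 0.049). At an adjusted p below 0.01 with any fold change, 3 of the 9 were higher and 0 lower. Over all tested genes these shares were 4.78% and 4.38%. Nothing is read from these counts about DPP4, which the contrast chose.

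RNA of most listed DPP4 substrates was scarce in these cells, which does not measure the substrates themselves. Of 16 listed, 3 were tested, 0 were called, and the median log2 fold change was 0.01. The chemokine CXCL10 had 19, 49 and 58 counts in siNT and 7, 12 and 14 in siLTBP2. The groups did not overlap, and CXCL10 had a log2 fold change of -1.85 with an adjusted p of 0.0102 by edgeR, just short of a call. Without siNT replicate 1, the count of DPP4 substrates called was 1. CXCL12 (4.74 against 5.85 CPM) and the nuclear protein HMGB1 (255 against 257 CPM) did not differ beyond the spread of the libraries. Of 5 tested binding partners of DPP4, 0 were called, with a median log2 fold change of 0.05. Fibronectin (FN1) rose at less than 2-fold from 1164 to 1969 CPM (log2 fold change 0.76, edgeR adjusted p = 0.0016). Adenosine deaminase (ADA), the enzyme that docks on DPP4, was at 6.89 against 5.60 CPM (log2 fold change -0.30) and caveolin 1 (CAV1) at 1203 against 1248 CPM, and neither passed.

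On the side of FAP, 6 substrates and membrane partners were tested, 1 was called higher and 0 lower, with a median log2 fold change of 0.60. Over all tested genes 1.29% were called higher and 1.27% lower, and the median was -0.01. At an adjusted p below 0.01 with any fold change, 3 of the 6 were higher and 0 lower. Over all tested genes these shares were 4.78% and 4.38%. The urokinase receptor gene PLAUR rose from 45.5, 36.3 and 51.1 CPM to 109, 112 and 147 CPM (log2 fold change 1.47, SE 0.15, edgeR adjusted p = 0.00013). Both integrin subunits of the FAP complex, ITGA3 and ITGB1, rose at less than 2-fold, with log2 fold changes of 0.89 and 0.90 (adjusted p = 0.00091 and 0.00018). The collagen genes COL1A1, COL1A2 and COL3A1 had log2 fold changes of -0.22, 0.32 and -0.37 and did not pass.

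Of 5 tested genes that mark DPP4-positive fibroblasts, 0 were called, and the median log2 fold change was 0.27. Fibrillin 1 (FBN1), the most abundant, was at 683 against 1073 CPM (adjusted p = 0.017), and SEMA3C at 117 against 156 CPM (adjusted p = 0.052). Of the 12 genes listed, DPT, MFAP5 and ANXA3 had 0 counts in all 6 libraries, and PI16 had at most 4. Of 10 tested markers of FAP-positive activated fibroblasts, 2 were called higher and 0 lower, beside 1.29% higher and 1.27% lower over all tested genes. Their median log2 fold change was 0.32, with 8 above 0 and 2, THY1 at -0.20 and COL5A1 at -0.09, below it. PDPN and CTHRC1, listed but not tested, had at most 1 count in any library. Tenascin C (TNC), a matrix glycoprotein, rose from 146, 105 and 149 CPM to 397, 354 and 399 CPM (log2 fold change 1.52, edgeR adjusted p = 7.1e-05). The actin-binding protein gene TAGLN rose from 75.3, 91.5 and 86.0 CPM to 146, 172 and 245 CPM (log2 fold change 1.16, edgeR adjusted p = 0.0010). TAGLN was highest in the third siLTBP2 library, and without it the log2 fold change was 0.92, no longer past 2-fold. ACTA2, SPARC and POSTN in the same list did not pass.

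Of 7 tested genes of the inflammasomes that DPP8 and DPP9 restrain, 0 were called and 0 passed the adjusted p, with a median log2 fold change of -0.23. The sensors NLRP1 and CARD8 had log2 fold changes of -0.38 and 0.22. Of 7 tested transcription factors described for DPP4 or FAP, 0 were called, with a median log2 fold change of 0.12. SMAD3, a transducer of TGFβ signals, was lower at less than 2-fold, from 342 ± 33.1 to 236 ± 9.07 CPM (SD, n = 3, log2 fold change -0.54, edgeR adjusted p = 0.0031). STAT3 and HIF1A had log2 fold changes of 0.33 and 0.31 and did not pass.

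**Figure D5:**
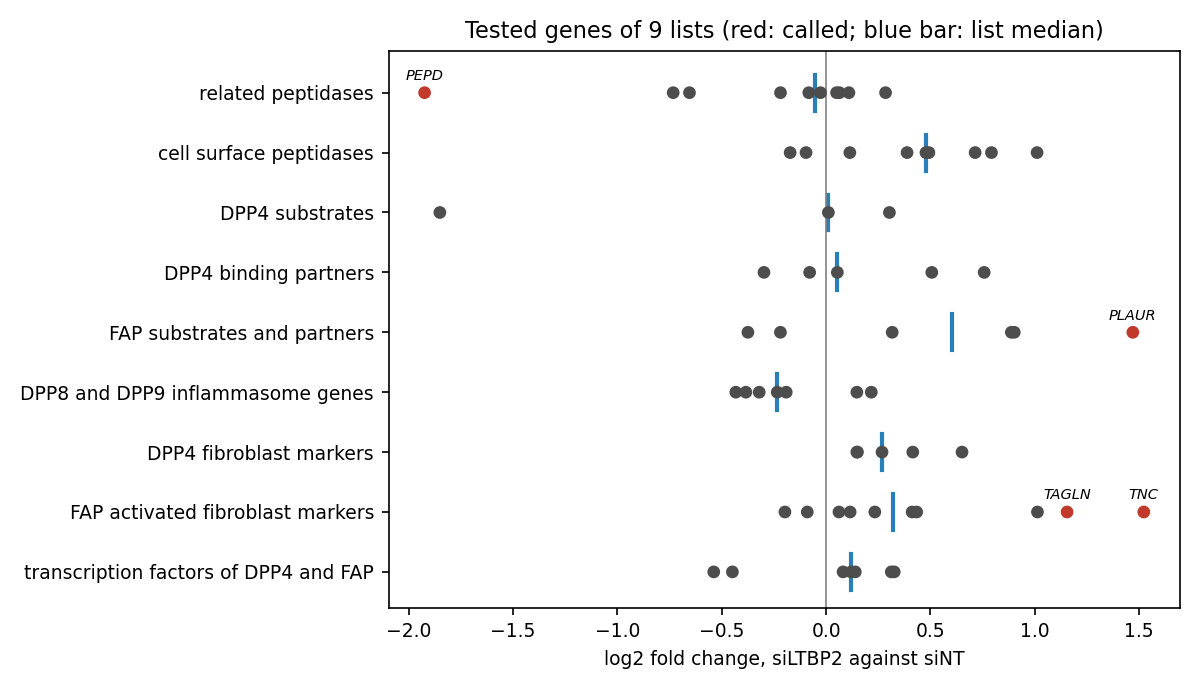
Log2 fold change of siLTBP2 against siNT (horizontal axis) for each tested gene of 9 lists (rows), with called genes in red and named, other genes in grey and the list median as a blue bar. PEPD at -1.92 is the called gene to the left of 0, and PLAUR at 1.47, TAGLN at 1.16 and TNC at 1.52 are those to the right.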

How the data were processed

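RNA of 3 siNT and 3 siLTBP2 libraries of CCD18Co cells was sequenced as stranded total RNA after removal of ribosomal RNA. Per the submitters' processing notes, STAR 2.7.1a aligned the reads to GRCh38 and HTSeq 0.11.2 counted them, and the authors deposited raw counts per gene. Whether counting used strand is not given in the sources used here. Genes were filtered with filterByExpr, scaled by TMM and tested with edgeR 4.0.16 in R 4.3.3 (quasi-likelihood test, Benjamini-Hochberg adjustment over 16920 genes, called at adjusted p below 0.01 and fold change above 2). Alternatives were the likelihood ratio test, DESeq2 1.42.0, other scalings and filters, a replicate block, and leaving out libraries. CPM are TMM-scaled. The scripts were tested on simulated data. Depth was 44663424 to 53576899 counts per library, and replicates differed by more than sampling noise (chi-square per degree of freedom 27.8 to 55.2). The members and lists were chosen with earlier results of these data known. Named genes were the 6 members, LTBP2, DPP4-DT, list genes past the threshold, the 2 most abundant and the defining genes of a list, and the 5 genes most correlated with DPP4 or FAP. Some genes that this rule or a list names are not reported here. List genes that passed the adjusted p at under 2-fold, and others with a value given, were named after their values were seen. Of each canonical transcript, the length was taken from GENCODE. Upstream sequences are from RefSeq GRCh38.p14.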

Additional observations from a re-analysis of the deposited data

How the results depend on the processing

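As a description of the contrast that chose it, DPP4 had a log2 fold change of -1.47 to -1.42 over tests, scalings, filters and the replicate block and -1.53 to -1.30 with 1 library left out. Genes called rose from 434 to 680 with no low-count filter. With 1 library left out, FAP ran from 0.14 to 0.43, DPP9 from -0.11 to 0.01 and PREP from -0.051 to 0.023. DPP9 turned to 0.0053 without siNT replicate 3. PREP turned to 0.011 without siNT replicate 1, 0.0070 without siNT replicate 3 and 0.023 without siLTBP2 replicate 1. DPP9 was 0.011 with both libraries numbered 3 left out, an alternative chosen after seeing the data, like the removal of DPP4-DT counts. TAGLN was 0.91 there. The cause was not tested. The count of DPP4 substrates called was 1 in place of 0 under the likelihood ratio test, DESeq2, RLE scaling, no low-count filter, the replicate block and without siNT replicate 1. The count of cell surface peptidases called went from 0 to 1 without siLTBP2 replicate 3, without both libraries numbered 3 and with no low-count filter, that of inflammasome genes from 0 to 1 with no low-count filter, and that of locus neighbours from 1 to 2 under the likelihood ratio test. Same-numbered libraries correlated at 0.298, 0.0832 and 0.428 in their deviations from the group means, and differently numbered ones at -0.391 to 0.103. Each siLTBP2 library thus correlated best with the siNT library of its number. The labels do not say that the numbers pair libraries, so the main test did not use pairs. With the replicate block, 636 genes were called in place of 434. Under the replicate block DPP4 was -1.43 and FAP 0.28. With 3 libraries a group, an exact permutation test of 1 value cannot go below p = 0.1.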
